A study of Mus musculus with 3 samples.

Results

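The 10 genes described here encode the core of the circadian clock and the basic leucine zipper (bZIP) factors at its output: Arntl, Clock, Nfil3, Dbp, Tef, Hlf, Per1, Per2, Cry1 and Nr1d1. They are 10 of 21887 protein-coding genes of the mouse RefSeq annotation, and their peaks were selected by position: every ATF4 or CEBPG peak that overlapped the gene span or the 50 kb on either side. This window around a gene is called its window below. The genes were chosen from peak lists already examined, in which Arntl stood near a high-scoring peak, so the counts and scores of their peaks are descriptions and carry no test. The rule found 3 of 2642 ATF4 peaks and 27 of 25419 CEBPG peaks.

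The cells were primary mouse embryonic fibroblasts (wild type, strain C57BL/6, isolated at E13.5, passaged a few times). All were grown for 24 hours in medium and then for 3 hours in medium deprived of amino acids (AAD) before chromatin immunoprecipitation and sequencing (ChIP-seq). An ATF4 antibody gave 1 library and a CEBPG antiserum gave 1 library. A GFP antibody gave another, which is not analysed here. No library from fed cells was used here, so nothing below is a response to deprivation. There was no replicate, how deeply each library was sequenced is unknown, and peak lists hold no expression, so the cells could not be checked against fibroblast markers. Each peak carries the authors' own score. Scores begin at 40.02 in the ATF4 list and rank peaks within a list, but scores of the 2 lists are not on a shared scale. A gene without a listed peak had none above that minimum, which does not show that it was unbound.

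In the clock, BMAL1 (encoded by Arntl) and CLOCK form a heterodimer that switches on genes through E-box elements. Its targets include the period and cryptochrome genes, whose proteins inhibit the heterodimer, and Nr1d1, whose product REV-ERB alpha represses Arntl. Dbp, Tef and Hlf encode the proline and acidic amino acid-rich (PAR) bZIP activators, which bind D-box elements, and NFIL3 is the bZIP repressor of the same elements. ATF4 and CEBPG are bZIP proteins too. They can pair with each other and bind composite sites in which a C/EBP and an ATF element are joined. Cultured fibroblasts carry a working clock.

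ATF4 peaks lay in the windows of 2 of the 10 genes, Arntl and Nfil3, against 12.0% of all protein-coding genes. The other 8 genes had no ATF4 peak in the window. CEBPG peaks lay in the windows of 8 genes, against 62.5% of all protein-coding genes, and Hlf and Per2 were the genes with no peak of either factor. An ATF4 peak that overlapped a CEBPG peak by at least 1 bp lay in the windows of Arntl and Nfil3, 2 of 10, against 2.95% of all genes. Wide genes have wide windows. The median span of the 10 genes was 33.8 kb, against 17.2 kb over all protein-coding genes.

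**Figure D1:**
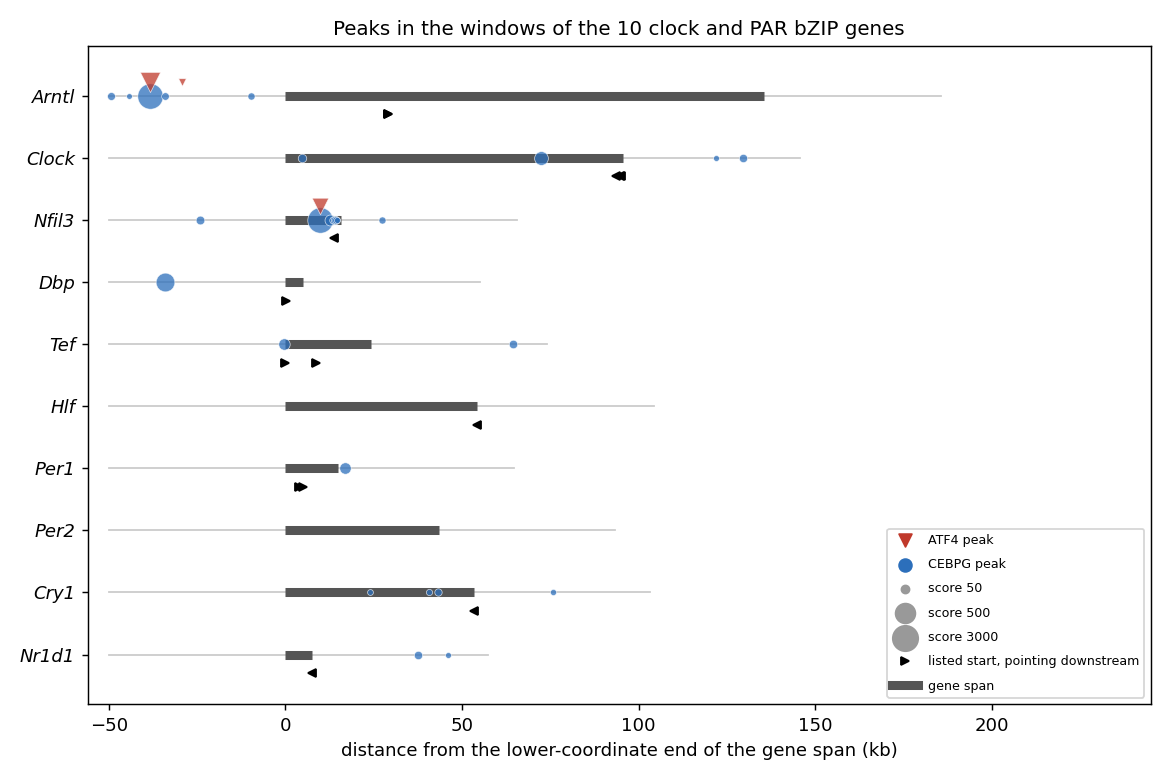
Peaks in the windows of the 10 genes. The horizontal axis is the distance in kb from the lower-coordinate end of each gene span, thick bars are gene spans, thin lines are the 50 kb on either side, and arrowheads are listed starts (none is listed for Per2). Triangles are ATF4 peaks and circles CEBPG peaks, larger at higher scores. ATF4 peaks appear at Arntl and Nfil3, and the rows of Hlf and Per2 are empty.

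The CEBPG peaks around these genes were mostly of low score, as are those of the whole list. Of the 27, 14 scored under 50, 9 scored from 50 to under 100, and 4 scored 100 or more, 1 each at Arntl, Nfil3, Dbp and Clock. The share at 100 or more was 14.8% here and 11.7% over the whole CEBPG list. A CEBPG peak of 100 or more was thus in the windows of 4 of the 10 genes, against 17.3% of all protein-coding genes, and an ATF4 peak of 100 or more was in 2 of 10, against 0.991%. The median score was 49.42 for these CEBPG peaks and 47.24 over the whole list. The median number of CEBPG peaks in a window was 2 for the 10 genes and 1 over all genes. The windows held 18.6 CEBPG peaks per Mb, against 9.69 per Mb between the first and last peaks of the chromosomes. The low peaks spread over Arntl, Clock, Nfil3, Tef, Per1, Cry1 and Nr1d1, while the highest scores were shared by Arntl and Nfil3.

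**Figure D2:**
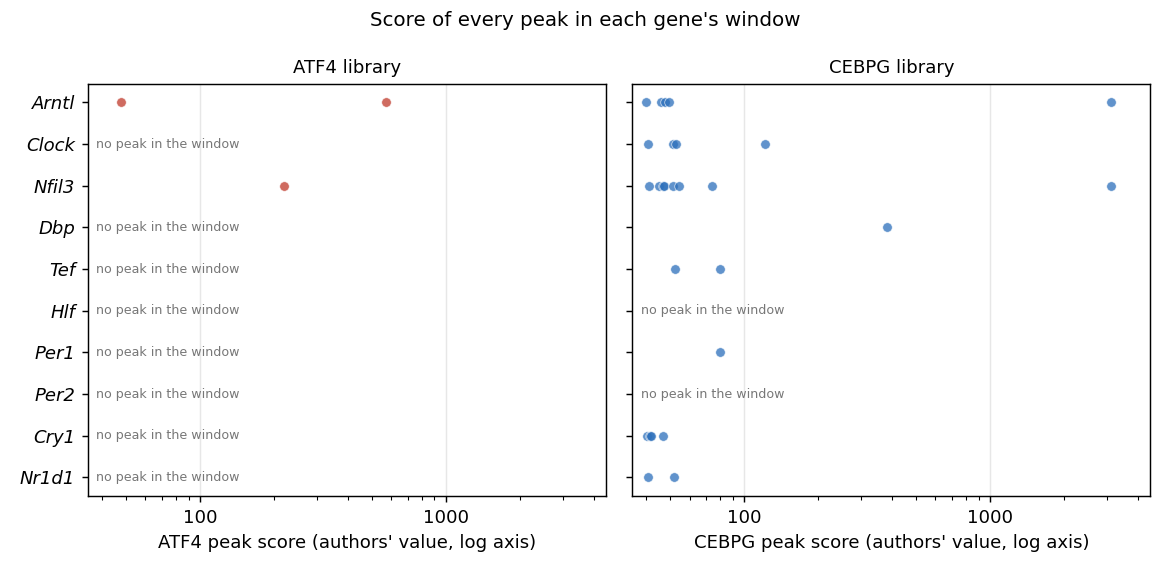
Score of every peak in the window of each gene, with ATF4 on the left and CEBPG on the right, both on log axes. Each point is 1 peak. The highest CEBPG score, 3100, occurs once at Arntl and once at Nfil3, and these are the genes with ATF4 peaks.

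The activator genes of the clock were unlike each other. Arntl, on chromosome 7 from 113178471 to 113314126, had the strongest site of the 10 genes. Its ATF4 peak covered 113139955 to 113140358 (404 bp) with a score of 574, the fourth highest of the ATF4 list. The CEBPG peak there covered 113139771 to 113140538 (768 bp) with a score of 3100, a value shared by 38 CEBPG peaks and exceeded by 4. The ATF4 peak lay wholly within the CEBPG peak, and the centres were 2 bp apart, where the median over all 404 overlapping pairs was 44 bp. Only 9 pairs, 2.23% of them, had centres that close. In the ATF4 list a median peak was 164 bp wide, and in the CEBPG list 131 bp, so both Arntl peaks were wide ones.

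The Arntl pair did not lie at a start of the gene. It was centred 38.3 kb below the lower-coordinate end of the span and 67.3 kb upstream of the nearest start in the RefSeq promoter table, of which Arntl has 2. No other protein-coding gene had this pair in its window, but the pair lay inside the span of the long noncoding RNA gene 4930543E12Rik. A weaker ATF4 peak (47.92) lay 29.4 kb from the Arntl span and overlapped no CEBPG peak. The other 4 CEBPG peaks, on the same side, scored 49.42, 40.05, 47.75 and 45.81 and lay 49.5, 44.3, 34.1 and 9.75 kb from the span. The first of these is just inside the 50 kb limit, and the next CEBPG peak beyond it (63.08) lay 75 kb away. Neither factor had a peak inside the 136 kb Arntl span.

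By the highest ATF4 score in its window, Arntl came after 6 of the 21887 protein-coding genes. Slc7a5, Klhdc4 and Gm42048, next above it, share a single peak of 771.89. Lcorl (551.86), Lrp1 and Ndufa4l2 (526.4 each, 1 shared peak) came next below. Their highest CEBPG scores were 3100 for the first 4 of these and 2510.62 for Lrp1 and Ndufa4l2. Likeness here is the ATF4 score alone, over 1 library, and several of these genes are counted through a peak that is closer to a neighbour.

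**Figure D3:**
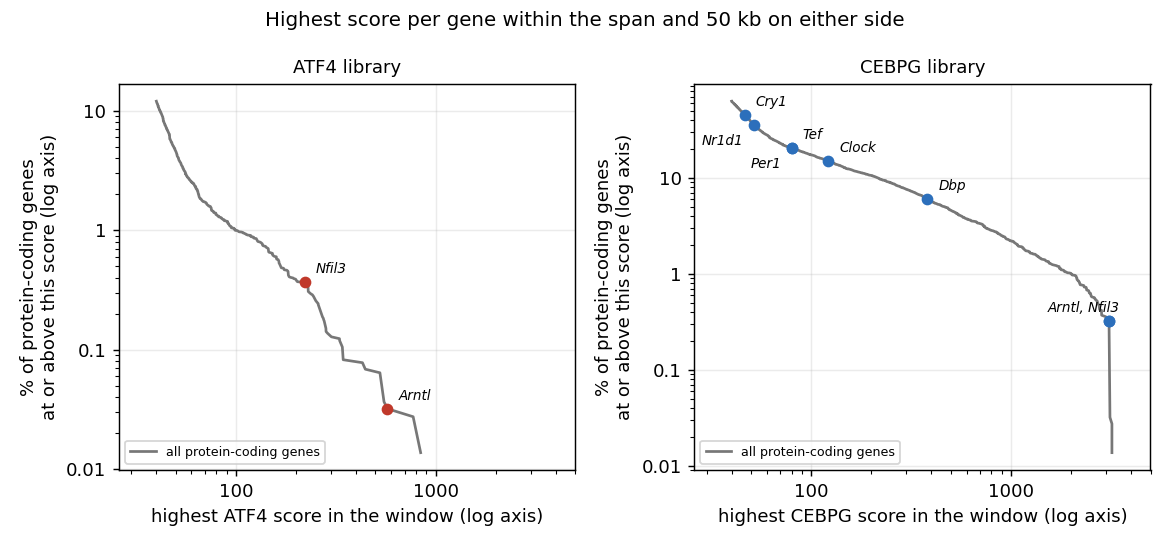
Share of protein-coding genes whose highest score in the window reaches the value on the horizontal axis, for ATF4 on the left and CEBPG on the right, on log axes. The grey line is all 21887 genes and points are the clock and PAR bZIP genes with a peak. At the Arntl ATF4 score the share is 0.032%, at the Nfil3 ATF4 score 0.366%, and at their tied CEBPG score 0.32%.

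Clock, on chromosome 5 from 76209868 to 76305603, had 4 CEBPG peaks and no ATF4 peak. The strongest scored 122.04, inside the span and 21.2 kb downstream of the nearest of 3 listed starts. Another inside peak scored 52.64. The 2 upstream peaks lay closer to other genes. The peak of 40.63 was 0.774 kb from Pdcl2, and that of 51.44 was inside Nmu, the neuromedin U gene. The nearest ATF4 peak was 495 kb from Clock and scored 46.64. Of the genes for the BMAL1 and CLOCK heterodimer, Arntl thus had an ATF4 peak of 574 and Clock had none in its window. Most genes had none, as 12.0% of all protein-coding genes had an ATF4 peak in the window.

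The repressor gene Nfil3, on chromosome 13 from 52967209 to 52982878, carried the second pair. Here both peaks lay within the gene. The ATF4 peak covered 52976700 to 52977123 (424 bp) with a score of 220.73, rank 40 of 2642. The CEBPG peak covered 52976501 to 52977325 (825 bp) with a score of 3100, the same tied value as at Arntl. The ATF4 peak was again wholly within the CEBPG peak, with centres 1.5 bp apart, as close as in 7 of the 404 pairs (1.73%). The pair was centred 4.13 kb downstream of the single listed start, and 5966.5 bp from the nearer end of the span for ATF4. Exons were not in the annotation used here, so whether the pair is exonic or intronic could not be read. Both CEBPG scores sit at a value tied over 38 peaks, although 4 peaks exceed it. Why so many peaks share this value is unknown, so the tie does not show equal strength, nor the 4 higher scores stronger peaks. The Nfil3 and Arntl pairs were alike in width and containment and unlike in place: inside the gene at Nfil3, far upstream at Arntl.

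**Figure D4:**
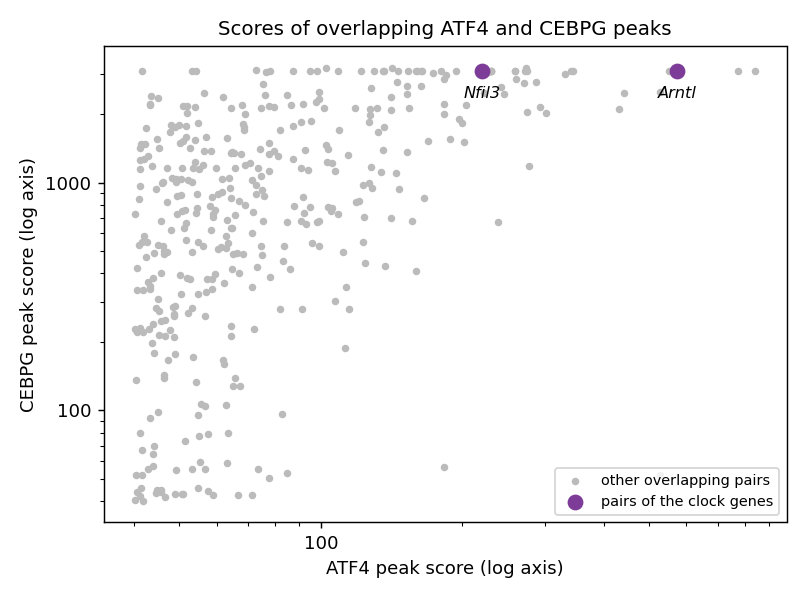
Scores of all 404 overlapping ATF4 and CEBPG peak pairs, ATF4 on the horizontal and CEBPG on the vertical log axis. Each grey point is 1 pair, and the large points are the pairs at Arntl (574 and 3100) and Nfil3 (220.73 and 3100), on the row of tied CEBPG scores at 3100.

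Nfil3 also held 5 low CEBPG peaks within its span, grouped around the listed start. Their centres lay 791.5, 363.5 and 211.5 bp upstream of it, with scores of 41.08, 46.96 and 51.56, and 472 and 1073 bp downstream, with scores of 47.21 and 74.05. With the strong peak this made 6 CEBPG peaks in a span of 15.7 kb. Of the 10369 protein-coding genes with a span this long or shorter, 9797 (94.5%) had no CEBPG peak in the span, and Nfil3 was the only gene with 6 or more. This count was looked up after the cluster had been seen. The 2 remaining CEBPG peaks lay outside the span, 24.1 kb (54.15) and 11.6 kb (45.25) away, and the first of them was closer to Auh. ATF4 had no listed peak near the Nfil3 start, and its next peak beyond the window was 1573 kb away.

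**Figure D5:**
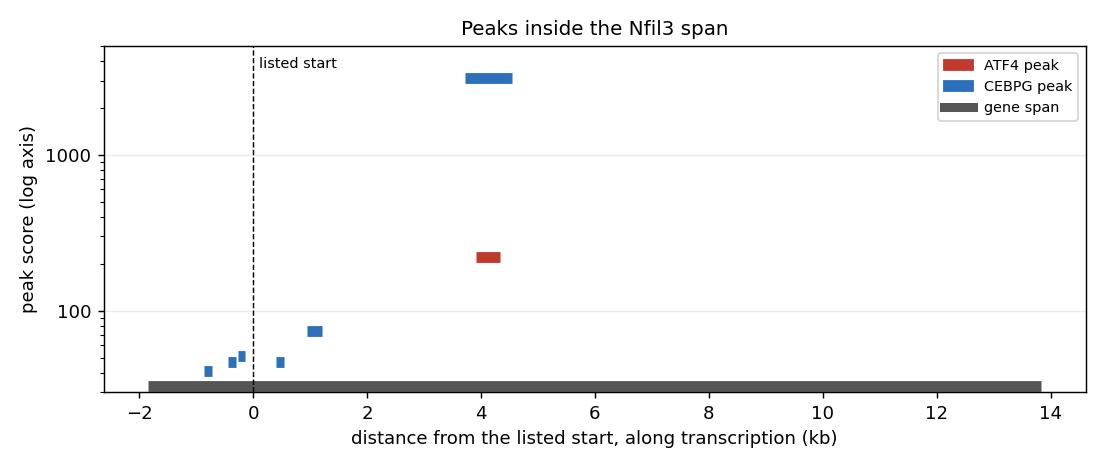
Peaks inside the Nfil3 span. The horizontal axis is the distance in kb from the listed start along transcription, and the vertical log axis is the peak score. Each segment spans the width of 1 peak, ATF4 or CEBPG, and the grey strip at the foot is the gene span. The pair near 4.13 kb stands above 5 CEBPG peaks of 41.08 to 74.05 around the start.

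The CEBPG peak with a score of 51.56 reached into the Nfil3 promoter, here the 250 bases before and 50 bases after the start as listed by RefSeq for GRCm38.p6. A CEBPG peak overlapped a listed promoter of 1 of the 9 genes that have one, against 1.64% of protein-coding genes with a promoter. The sequence is printed because it is the only promoter of the 10 genes under a peak. It covers chr13:52980990-52981289 on the minus strand, and capitals mark the 101 bases under the CEBPG peak, from 250 to 150 bases before the start.
Nfil3 promoter: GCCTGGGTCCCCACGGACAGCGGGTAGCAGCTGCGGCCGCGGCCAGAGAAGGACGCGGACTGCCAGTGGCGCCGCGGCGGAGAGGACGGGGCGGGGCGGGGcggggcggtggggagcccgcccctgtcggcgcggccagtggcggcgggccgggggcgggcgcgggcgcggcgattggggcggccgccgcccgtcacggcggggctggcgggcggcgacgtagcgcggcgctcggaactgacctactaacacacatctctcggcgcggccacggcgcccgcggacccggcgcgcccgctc
G and C made up 81.7% of this promoter, against a median of 52.7% over all 32851 promoters. High shares also occurred in promoters of these genes without a peak. The 3 Clock promoters had 76.3%, 76.7% and 47%, and the Cry1 promoter had 72.3%. Whether base composition bears on the low peaks was not tested. The bases under the strong pairs at Arntl and Nfil3 lie outside the promoter table and are not shown.

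The PAR bZIP activator genes had CEBPG peaks at most. Dbp, on chromosome 7 from 45705100 to 45710203, had 1 CEBPG peak of 382.07, at 45670695 to 45671106 and 34.2 kb from the span. This peak was 4.51 kb from Fut2, a fucosyltransferase gene, and lay in the windows of 10 other protein-coding genes. Beyond the window, 88.6 kb from Dbp, lay an ATF4 peak of 165.67 and a CEBPG peak of 858.84. Those were 1.04 and 0.996 kb from Fgf21, the gene of a stress-induced hormone.

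Tef, on chromosome 15 from 81802673 to 81826863, had a CEBPG peak of 80.07 centred 538.5 bp upstream of its first listed start. That peak also lay within the span of the noncoding gene Gm17597. A second peak (52.59), 40.4 kb beyond the span, lay inside Phf5a, a splicing factor gene. Hlf, on chromosome 11 from 90336535 to 90390917, had no peak in its window. The nearest lay just beyond it, at 50.8 kb for CEBPG (42.33) and 57 kb for ATF4 (48.35). Of the 4 genes whose proteins act at D-boxes, only the repressor gene Nfil3 had an ATF4 peak in the window. The activator genes Dbp, Tef and Hlf had none, like most genes, as 12.0% of all protein-coding genes had one.

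The inhibitory arm is represented among the 10 genes by Per1, Per2, Cry1 and Nr1d1, and none of these had a peak of 100 or more. Per1, on chromosome 11 from 69095108 to 69109965, had 1 CEBPG peak of 80.14, which lay 2.14 kb past the downstream end of the span and 1.11 kb from the transfer RNA gene n-TScga3. Per2, on chromosome 1 from 91415977 to 91459351, had none, and its nearest peaks were 237 kb away for ATF4 (43.53) and 119 kb away for CEBPG (43.93). Cry1, on chromosome 10 from 85131700 to 85185054, had 4 CEBPG peaks of 40.45, 41.73, 46.7 and 41.51. Of these, 3 lay inside the span and the last 22.4 kb upstream of the start. All 4 were below the median of the CEBPG list. Nr1d1, on chromosome 11 from 98767932 to 98775377, had CEBPG peaks of 51.84 and 40.67 in its window, but the first lay inside Msl1 and the second inside Casc3. No ATF4 peak lay within 100 kb of any of these 4 genes. The nearest was 169 kb from Per1 (50.83).

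Peaks in a window can belong to a neighbour. All 3 ATF4 peaks had Arntl or Nfil3 as the nearest protein-coding gene, but 7 of the 27 CEBPG peaks were nearer to another gene. Counting a peak for its nearest gene alone left 2 genes with ATF4 peaks and 6 with CEBPG peaks, without Dbp and Nr1d1. By that rule 6.32% of all protein-coding genes had an ATF4 peak and 34.5% had a CEBPG peak.

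The 14 promoters listed for 9 of these genes (Per2 has no entry) were searched on both strands for 7 motifs. The C/EBP and ATF composite element (TGATGNAAN) and 2 motifs searched as C/EBP sites (TTGCNNCAA and TTNCGNAA) matched none of them. Nor did the D-box, searched only as TTANGTAA, or the AP-1 site (TGANTCA). Over all promoters these motifs, in the order given, matched 3.95%, 2.08%, 2.47%, 2.32% and 7.81%. Other forms of the D-box were not searched, so the lack of a match does not show that these promoters have none. The first listed Per1 promoter holds TTATGCAA, which differs from the searched pattern in a single base. TTNCGNAA is a palindrome, but TTGCNNCAA is not, so its share is not that of a palindromic C/EBP site. Some sequences match both TTGCNNCAA and the composite element, or both TTNCGNAA and the D-box, and would count for each. The cyclic AMP response element (TGACGTCA), a full ATF and CREB site, matched the Hlf promoter, against 1.79% of all promoters. The E-box (CACGTG), the BMAL1 and CLOCK element, matched 4 of the 14 promoters, in Per1, Cry1 and both of Tef, against 7.15% of all promoters. None of these matches lay under a listed peak. They are printed, with up to 25 bases on each side and the motif in capitals, to show which promoters hold the letters CACGTG and which TGACGTCA. Other forms of these elements were not searched, so a promoter without a match may still hold one. Per1 is from its first listed start on chromosome 11 (166 bases before the start), Cry1 from chromosome 10 (60 before), Tef from its first listed start on chromosome 15 (127 before) and Hlf from chromosome 11 (9 before), all in GRCm38.p6 along the gene's own strand.
Per1: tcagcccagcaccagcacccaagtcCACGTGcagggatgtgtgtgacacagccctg
Cry1: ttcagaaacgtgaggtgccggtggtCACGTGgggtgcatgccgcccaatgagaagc
Tef: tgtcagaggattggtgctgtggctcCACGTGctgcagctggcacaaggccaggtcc
Hlf: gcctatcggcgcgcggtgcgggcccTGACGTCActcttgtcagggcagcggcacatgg
A match describes the letters only. The Hlf window, with the ATF and CREB element, held no ATF4 or CEBPG peak.

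Another 18 genes of the clock were listed beside these. They cover paralogs (Npas2, Arntl2, Per3, Cry2 and Nr1d2), the ROR activators of Arntl (Rora and Rorb), the repressors Bhlhe40, Bhlhe41 and Ciart, the kinases Csnk1d, Csnk1e and Gsk3b, the ubiquitin ligase subunits Fbxl21 and Btrc, and Usp2, Timeless and Nono. ATF4 peaks lay in the windows of 3 of the 18 (12.0% of all genes) and CEBPG peaks in those of 14 (62.5%). The ATF4 peaks were at Rorb (65.29), Npas2 (55.78) and Btrc (50.56), and none of them overlapped a CEBPG peak. Of the 3 ATF4 peaks of Arntl and Nfil3, 2 did, and 15.1% of all ATF4 peaks. With only 3 peaks, a lack of overlap cannot be told apart from that share. The list holding Arntl and Nfil3 was chosen with Arntl known to stand near a high-scoring peak. Its overlapping ATF4 peaks also scored higher, 574 at Arntl and 220.73 at Nfil3. The overlap counts are therefore no contrast between the lists, and a difference was not tested. No ATF4 peak among the 18 reached 100, where 0.991% of all genes had such a peak in the window.

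CEBPG peaks of 100 or more were in 7 of the 18 windows (17.3% of all genes). Rora, a nuclear receptor gene with a span of 735 kb, had 11 CEBPG peaks, led by 1919.95 on chromosome 9 at 68989972 to 68990409, inside the span. Bhlhe40, encoding the repressor DEC1, had a single peak of 592.02, 42.9 kb from the span, and Arntl2 a single peak of 361.82, which lay nearer to Stk38l. None of the 36 CEBPG peaks in these 18 windows overlapped an ATF4 peak, where 1.58% of all CEBPG peaks did.

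Cry2 and Ciart, named here after their values were seen, are the other clock genes whose listed promoter lay partly under a CEBPG peak, 2 of the 15 with a promoter (1.64% of all genes). Cry2 had its strongest peak (159.9) 0.871 kb downstream of the start, and a low one (41.19) over the first bases of the promoter. Ciart, a repressor of the BMAL1 and CLOCK heterodimer, had a CEBPG peak of 159.17 across its start. Its promoter (chr3:95882179-95882478, minus strand, GRCm38.p6) is printed with the 79 bases under the peak in capitals, from 29 bases before the start onwards. The 3 E-boxes of this promoter, at 116, 58 and 44 bases before the start, all lie upstream of the capitals.
Ciart promoter: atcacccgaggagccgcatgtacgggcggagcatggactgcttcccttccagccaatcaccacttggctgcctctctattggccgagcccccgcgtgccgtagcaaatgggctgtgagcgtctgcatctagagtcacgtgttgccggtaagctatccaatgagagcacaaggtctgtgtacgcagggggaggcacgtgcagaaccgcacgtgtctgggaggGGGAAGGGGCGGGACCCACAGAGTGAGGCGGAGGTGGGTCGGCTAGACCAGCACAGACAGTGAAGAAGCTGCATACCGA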

How the data were processed

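ATF4 and CEBPG ChIP-seq peak lists from amino acid-deprived mouse embryonic fibroblasts were analysed, 1 library each. Trimmomatic, BWA, MACS 1.4.2 and HOMER, with build mm10, are listed without settings in the submitters' processing notes. The deposited BED files give each peak's start and end. The deposited score is the last number of each peak name, the authors' own value, on a scale not given in the sources used here. Read counts were not used here, so depth is unknown and no interval was computed.

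Gene spans came from RefSeq (GRCm38.p6, the mm10 build), and starts and sequences from its promoter table. Positions are 1-based. Genes were counted with Python 3.11.15 and pandas 2.3.3, and the counting was tested on simulated data. Values were given for the 10 members, other clock genes with an ATF4 peak or among the 3 highest CEBPG scores, the nearest gene of each peak, and the genes ranked next to Arntl. Cry2 and Ciart were added after their values were seen, and the remaining other clock genes are named without values. Members and lists were chosen with earlier results of these data known. Alternatives changed the window, score minimum, peak width, overlap and gene assignment. Peak sequences were not analysed here, and a few clock genes are not reported here.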

Additional observations from a re-analysis of the deposited data

How the results depend on the processing

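Of 65 alternative counts, 38 stayed within 1.5 times the reported count. With the span alone, 5 kb or 20 kb on either side, Arntl dropped out of the ATF4 counts. That left 1 gene with an ATF4 peak, 1 with an overlapping pair, 1 ATF4 peak and 1 overlapping peak. In those windows 3.94%, 4.94% and 7.44% of all genes had an ATF4 peak, and 0.804%, 1.13% and 1.78% an overlapping pair. CEBPG genes numbered 3 with the span alone (23.4% of all genes) and 5 within 5 kb (29.9%), and CEBPG peaks 11, 13 and 15 for the span, 5 kb and 20 kb. Within 100 kb, Dbp and Hlf joined for ATF4, giving 4 genes (19.3% of all genes) and 5 peaks. At scores of 50 or more 13 CEBPG peaks were left. At 100 or more there were 4, in the windows of 4 genes (17.3% of all genes). Neither score minimum, nor leaving out peaks over 1 kb wide, nor centres within 250 bp, nor 50% overlap of both peaks, nor the nearest gene alone removed Arntl or Nfil3 from the pairs. Among the other clock genes, ATF4 genes numbered 5 within 100 kb (19.3% of all genes) and 0 at scores of 100 or more (0.991%). CEBPG genes there numbered 9 with the span alone (23.4% of all genes). They numbered 8 at scores of 50 or more (38.2%) and 7 at 100 or more (17.3%). The window and score alternatives change counts by their own construction. No paired analysis was possible because each antibody has 1 library. Depth is unknown, so a missing peak may lie under the listing minimum.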

Other observations

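The strongest CEBPG peak at Rora scored 1919.95. Of the 114 CEBPG peaks at or above it, 97 (85.1%) overlapped an ATF4 peak, and the Rora peak is among the 17 that did not. At the Bhlhe40 score of 592.02 or above, 250 of 539 CEBPG peaks (46.4%) overlapped an ATF4 peak, and the Bhlhe40 peak did not. At the Dbp score of 382.07 or above the count was 295 of 892 (33.1%), and the Dbp peak was among the 597 that overlapped none. Each share also counts all higher-scoring peaks, so it is not the share at that score itself. At Arntl and Nfil3, where the tied score of 3100 was reached, 40 of the 42 peaks at or above it overlapped an ATF4 peak, theirs included. These peaks were picked out after their values were seen, and no test was made.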
